A study of Mus musculus with 12 samples.

Results

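Ribosome biogenesis genes were followed in CD117+ and CD117- bone marrow (BM) cells of mice. The members were 43 named genes of the nucleolus and of RNA polymerase I, chosen by gene name with earlier results of these data known, and the probes taken for them were those whose array annotation carried the name, in its older or current form. Of the 43 genes, 41 had a probe in the scanner table and 37 had a probe detected on at least 3 of the 12 arrays, among 11472 genes tested in all. Fbl and Npm3 had no probe under either name in the tables used here, and the probes of Utp20, Bysl, Nop16 and Wdr12 were not detected on enough arrays, so no fold is given for these 6.

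The study asked whether cells carrying CD117, the receptor tyrosine kinase c-Kit, and cells given its ligand, stem cell factor (SCF), differ from their counterparts in the genes they express. All cells came from BM of mice aged 3 months that carry a β-globin/GFP fusion transgene, in which a thalassaemia-associated splicing mutation blocks GFP. Each of 4 groups had 3 Illumina arrays: CD117- cells (titles with A), CD117+ cells (titles with C), CD117+ cells with titles in U, and CD117+ cells exposed to SCF at 3 μg/ml for 48 hours. CD117+ cells were taken by magnetic separation, so the groups are enriched fractions and not pure cell types. The methods name 3 separate mice as the source of the CD117+ and CD117- cells, with a separate mouse for each replicate, and do not say whether arrays of different groups share a mouse. The labels do not write out what U stands for, and the protocol gives SCF to the last group only, so U is read here as CD117+ cells without SCF. The methods describe growth of isolated CD117+ cells in medium with insulin, serum and erythropoietin, with SCF added to some, but do not say whether this held for the C or U arrays.

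Ribosomes are assembled in the nucleolus. RNA polymerase I copies the ribosomal DNA into a long precursor, small nucleolar RNA-protein particles (snoRNPs) methylate and pseudouridylate it and guide its early cuts, and large sets of assembly factors fold and trim it into the small and the large subunit. Growing blood progenitors make many ribosomes, while maturing neutrophils and red cells wind the process down. The 37 tested genes comprised 5 of RNA polymerase I transcription, 8 of snoRNPs, 10 of small-subunit assembly, 10 of large-subunit assembly and 4 abundant nucleolar proteins.

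MYC and related factors bind the E-box CACGTG, which reads the same on both strands, and many ribosome biogenesis genes are known MYC targets, so the promoters were searched for it. RefSeq windows (build GRCm38.p6, 250 bases before to 50 after the start of transcription) were matched for 37 of the 43 genes, with none for Bop1, Rrp12, Gnl2, Fbl, Npm1 and Rrs1. CACGTG stood in the window of 9 of the 37 (24.3%), against 8.09% of the 27025 genes with a window. The 9 were Imp4, Pno1, Tsr1, Utp20 and Wdr43 of small-subunit assembly (5 of 11 with a window), Nop2 and Pes1 of the large subunit, Rrn3 of polymerase I and Mybbp1a. None of the 8 snoRNP genes with a window held it. The windows of 4 of these genes are shown because the genes were among those with the clearest values below and because they differ in where the E-box lies, which is in capitals in each sequence. They are written 5′ to 3′ on the strand of the gene. In Nop2 (chr6:125131633-125131932, plus strand) the E-box begins 60 bases upstream of the start. In Rrn3 (chr16:13780449-13780748, plus strand) there is a pair, 215 and 48 bases upstream. In Wdr43 (chr17:71615965-71616264, plus strand) it begins 17 bases downstream of the start, and in Mybbp1a (chr11:72441077-72441376, plus strand) 40 bases downstream.
Nop2: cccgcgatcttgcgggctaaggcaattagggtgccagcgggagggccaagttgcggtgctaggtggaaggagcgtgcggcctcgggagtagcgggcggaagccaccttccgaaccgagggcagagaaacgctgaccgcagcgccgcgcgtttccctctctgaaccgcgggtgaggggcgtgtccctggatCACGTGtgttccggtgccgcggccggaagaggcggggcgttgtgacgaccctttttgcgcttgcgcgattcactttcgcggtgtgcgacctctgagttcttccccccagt
Rrn3: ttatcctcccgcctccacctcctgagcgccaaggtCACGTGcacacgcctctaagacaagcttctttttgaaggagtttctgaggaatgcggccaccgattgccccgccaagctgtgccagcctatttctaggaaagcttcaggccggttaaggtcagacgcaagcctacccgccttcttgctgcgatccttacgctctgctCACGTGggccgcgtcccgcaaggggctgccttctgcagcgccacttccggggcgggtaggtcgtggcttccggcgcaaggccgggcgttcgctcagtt
Wdr43: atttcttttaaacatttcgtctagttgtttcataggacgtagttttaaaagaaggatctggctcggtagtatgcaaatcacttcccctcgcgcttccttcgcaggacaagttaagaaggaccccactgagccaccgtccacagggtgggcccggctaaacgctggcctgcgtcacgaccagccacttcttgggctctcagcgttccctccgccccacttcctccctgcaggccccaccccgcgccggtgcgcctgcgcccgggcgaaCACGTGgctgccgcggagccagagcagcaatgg
Mybbp1a: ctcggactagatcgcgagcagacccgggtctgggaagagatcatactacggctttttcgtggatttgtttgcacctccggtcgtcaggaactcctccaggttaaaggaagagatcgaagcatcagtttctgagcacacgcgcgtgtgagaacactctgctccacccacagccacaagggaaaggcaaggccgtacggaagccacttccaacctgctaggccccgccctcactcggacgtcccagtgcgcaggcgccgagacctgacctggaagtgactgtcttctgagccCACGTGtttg
Another short word, CGGAAG (or CTTCCG on the other strand), the core recognised by ETS and GABP factors, was added after the values had been seen. It was found in 19 of the 37 windows (51.4%) against 18.8% of all genes, and TATAA (or TTATA), also added later, in 4 of 37 (10.8%) against 28%. These counts describe letters in a window and are not binding sites. The members with and without CACGTG were not compared in their expression.

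Ribosome biogenesis genes were higher in the C-titled CD117+ cells than in CD117- cells almost throughout. The U-titled CD117+ cells were not tested against A, and for 3 of the 37 genes the lowest group mean was in U. Of the 37 genes tested, 34 were higher in the C group than in the A group and 0 were lower (limma, Benjamini-Hochberg adjusted p under 0.05 over all 11472 genes). Among all genes 29.6% were higher and 21.3% lower. The median log2 difference of the 37 genes was 1.27, against 0.07 over all genes. Of the 37, 32 were at least 1.5-fold higher and past the threshold, beside 2418 of all 11472 genes. These are bulk samples, in which more cells of a type and more RNA per cell cannot be told apart. With SCF these genes were again higher. Of the 37, 32 were higher in SCF-treated than in U cells and 0 were lower, beside 14.1% higher and 13.7% lower among all genes, with a median of 0.71 against 0.02. The 2 comparisons share no array, though all arrays were normalised together and each gene's spread was estimated over all of them. Of the 37 genes, 29 (78.4%) were higher in both, against 904 of 11472 (7.88%) among all genes. When the C and U arrays together were taken as control, 7 of the 37 genes were higher with SCF and 0 lower, at a median of 0.40, beside 2.59% higher and 1.93% lower among all genes and a median of 0.0037. The 7 were Polr1c, Dkc1, Utp15, Tsr1, Rrs1, Rrp1b and Ddx21. Of these, Dkc1, Utp15 and Rrs1 were detected on at most 1 of 3 C arrays and passed the detection filter through the U and SCF arrays. Tsr1 and Ddx21 each had a further probe that differed, as described below. Markers of other cells differed between the groups too, and their part in these results was not tested: the summed intensity of 10 neutrophil markers was 100770 to 113032 in A and 1759 to 3224 in C, and that of 10 cell division markers was 7281 to 8091 in U and 13560 to 15797 in SCF.

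On each array the median log2 intensity of the 37 genes lay between 7.69 and 7.97 in the A group, 9.31 and 9.62 in the C group, 8.48 and 8.80 in the U group and 9.39 and 9.60 in the SCF group. The A arrays were lowest and the U arrays next, with no overlap, while the C and SCF ranges overlapped. Over all genes tested the medians stayed between 7.04 and 7.18. Quantile normalisation gives every array the same distribution of probe values, so these medians are held near level by the processing. Taking the 37 genes singly, the highest group mean was in C for 18, in SCF for 18, in U for 1 and in A for 0, and the lowest was in A for 33. The SD between the 3 arrays of a group was 0.14 in the median (0.0071 to 0.66).

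**Figure D1:**
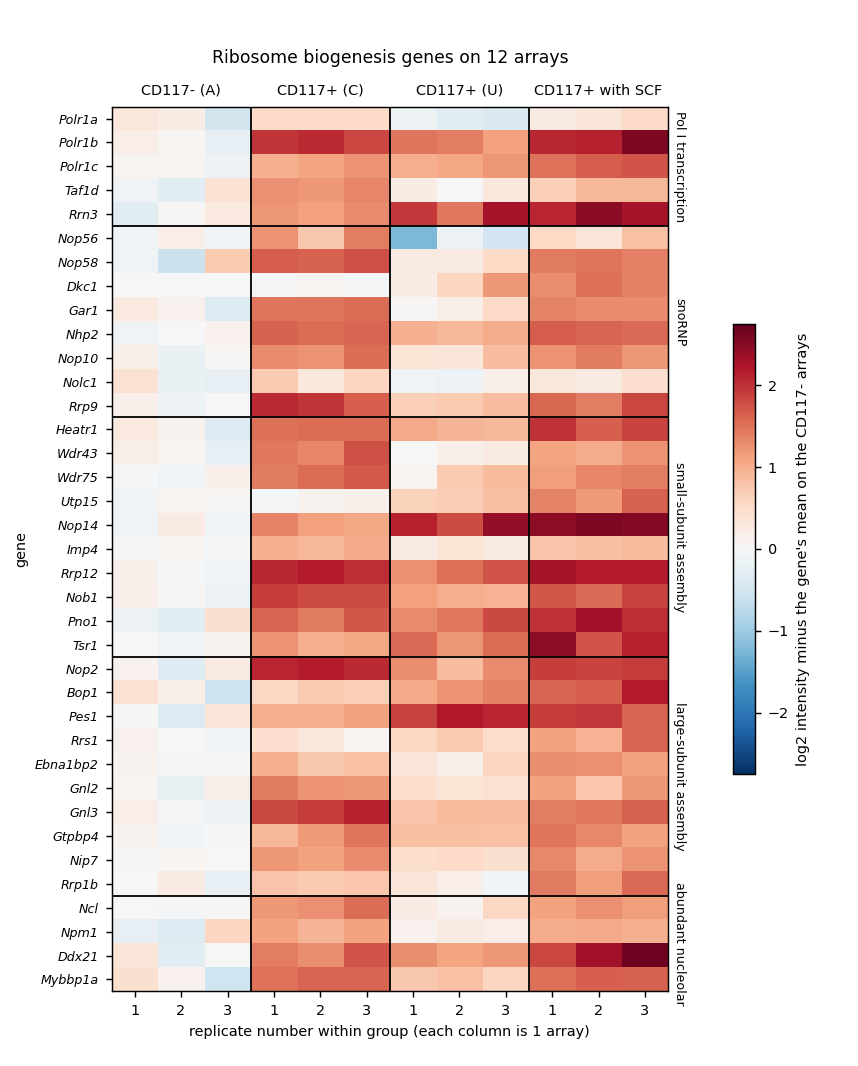
Heat map of the 37 tested genes (rows, by role) on the 12 arrays (columns, by group); colour is log2 intensity minus the gene's mean on the 3 CD117- arrays, on which Dkc1, Utp15, Rrs1 and Tsr1 were not well above background. The C and SCF columns are red for most genes and the U columns paler, and Rrn3, Nop14, Bop1 and Pes1 are redder in U than in C.

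**Figure D2:**
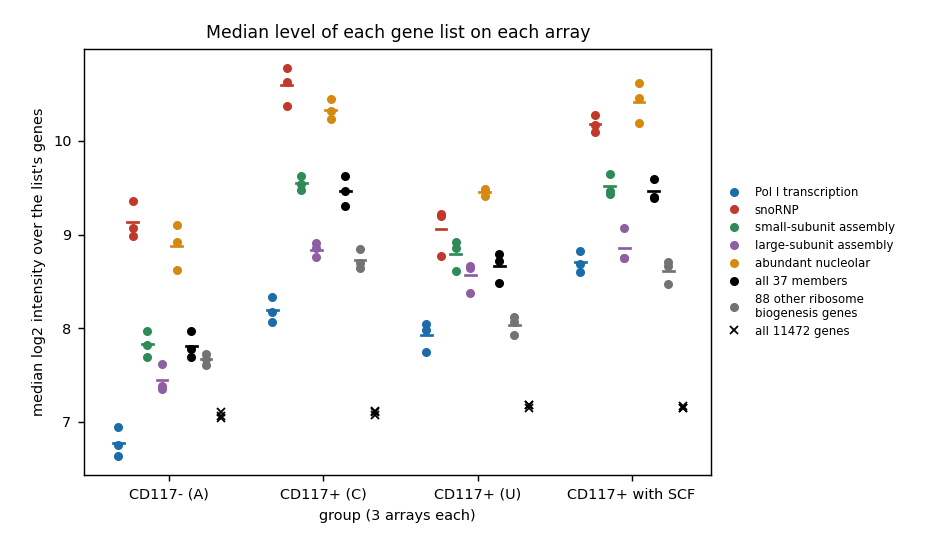
Median log2 intensity of each gene list on each array (points, 3 arrays a group; short lines are group means). The 37 genes run from 7.69 to 7.97 in A and from 9.31 to 9.62 in C. The crosses of all 11472 genes stay between 7.04 and 7.18, held near level by the quantile normalisation.

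The RNA polymerase I genes encode the enzyme and the factors that load it on ribosomal DNA. All 5 were higher in C than in A (median 1.21) and 4 of 5 were higher with SCF than in U (median 0.64). Polr1b, the partner of the catalytic subunit, had log2 intensities of 6.76, 6.64 and 6.35 in A, 8.55, 8.63 and 8.43 in C, 8.05, 7.98 and 7.72 in U and 8.66, 8.69 and 9.14 in SCF. Its A arrays lay below all others and its SCF arrays above all others. It was 3.88-fold higher in C than in A (log2 1.96, SE 0.17, adjusted p = 5.54e-08) and 1.88-fold higher in SCF than in U (log2 0.91, SE 0.17, adjusted p = 0.000654). Polr1a, the largest subunit and the one that holds the active site, moved less, with 9.95, 9.84 and 9.15 in A, 10.18, 10.17 and 10.17 in C, 9.51, 9.36 and 9.26 in U and 9.89, 9.99 and 10.16 in SCF. The third A array was low. C over A was 0.53 (adjusted p = 0.0158), and without A replicate 3 it was 0.28 (adjusted p = 0.0673). SCF over U was 0.64 (adjusted p = 0.00945) for Polr1a, and its U arrays lay below its SCF arrays. Taf1d, a subunit of the selectivity factor that recognises the ribosomal DNA promoter, had 6.58, 6.37 and 7.06 in A, 7.94, 7.87 and 8.02 in C, 6.88, 6.66 and 6.99 in U and 7.33, 7.58 and 7.58 in SCF. Its C arrays were highest and its SCF arrays lay between C and U. It rose by 1.27 in C over A (adjusted p = 1.72e-05) and by 0.66 in SCF over U (adjusted p = 0.0116), the latter falling to 0.57 (adjusted p = 0.0573) without U replicate 2. Polr1c, a subunit shared with RNA polymerase III, rose by 1.10 and 0.54.

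Rrn3, which joins the polymerase to its promoter complex and is a point where growth signals act on the enzyme, followed another order. Its log2 intensities were 5.14, 5.49 and 5.72 in A, 6.66, 6.57 and 6.74 in C, 7.38, 6.89 and 7.75 in U and 7.55, 7.93 and 7.71 in SCF. The C arrays were above the A arrays and below the U arrays, and U and SCF overlapped. C over A was 1.21 (SE 0.21, adjusted p = 0.000135), while SCF over U was 0.39 (SE 0.21, adjusted p = 0.190), which missed the threshold.

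The snoRNP genes encode the proteins that hold guide RNAs on the precursor. Of 8 tested, 7 were higher in C than in A (median 1.43) and 7 were higher with SCF than in U (median 0.82). Nop56 and Nop58 are the paired core proteins of the methylating (box C/D) particles. Nop58 had 9.41, 8.93 and 10.24 in A, 11.20, 11.15 and 11.29 in C, 9.76, 9.74 and 10.08 in U and 10.94, 10.99 and 10.92 in SCF. The A arrays were widely spread, and A and U overlapped, while C and SCF were tight and high. It was 3.22-fold higher in C than in A (log2 1.69, SE 0.22, adjusted p = 6.73e-06) and 2.13-fold higher in SCF than in U (log2 1.09, SE 0.22, adjusted p = 0.00136). Nop56 had 8.73, 9.03 and 8.77 in A, 10.07, 9.59 and 10.25 in C, 7.61, 8.69 and 8.32 in U and 9.39, 9.19 and 9.64 in SCF. All U arrays were below all A arrays, and both were below C and SCF. SCF over U was 1.20 for Nop56 (SE 0.23, adjusted p = 0.000843) and C over A 1.13 (adjusted p = 0.00054).

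Gar1, Nhp2 and Nop10 are core proteins of the pseudouridylating (box H/ACA) particles, and all 3 were higher in both comparisons. Gar1 had 10.60, 10.44 and 9.94 in A, 11.81, 11.79 and 11.86 in C, 10.37, 10.49 and 10.85 in U and 11.69, 11.62 and 11.62 in SCF. Its C and SCF arrays lay at least as high as 11.62 and its A and U arrays at most at 10.85. C over A was 1.49 (SE 0.15, adjusted p = 4.52e-07) and SCF over U 1.07 (SE 0.15, adjusted p = 7.62e-05). Nhp2 had 10.05, 10.13 and 10.28 in A, 11.78, 11.70 and 11.75 in C, 11.12, 11.07 and 11.18 in U and 11.81, 11.75 and 11.70 in SCF, with C and SCF overlapping above U and A. It rose by 1.59 (adjusted p = 1.61e-09) and 0.63 (adjusted p = 0.00024), and Nop10 by 1.36 and 0.77. Rrp9, a protein of the snoRNP that guides early cuts of the precursor, had 7.26, 6.97 and 7.13 in A, 9.18, 9.08 and 8.76 in C, 7.77, 7.83 and 7.98 in U and 8.69, 8.52 and 8.95 in SCF. Its 4 groups were ordered A, U, then SCF and C together, with C over A of 1.89 (adjusted p = 4.08e-08) and SCF over U of 0.86 (adjusted p = 0.000655).

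Dkc1, the pseudouridine synthase of the same particles, was not well above background on any A or C array, so no fold between these is given. It was at 4.57, 4.96 and 5.58 in U and 5.64, 5.90 and 5.75 in SCF, where SCF over U was 0.73 (adjusted p = 0.00757), or 0.50 (adjusted p = 0.0503) without U replicate 1, and it was detected on 2 of 3 U arrays. Nolc1, a chaperone of snoRNPs, was dim, detected on 1 of 3 A arrays. Its C over A of 0.53 (adjusted p = 0.0169) fell to between 0.42 and 0.44 without A replicate 2, A replicate 3 or C replicate 1 (adjusted p between 0.0729 and 0.0791) and to 0.13 on the deposited processed values (adjusted p = 0.0586). SCF over U for Nolc1 was 0.38 (adjusted p = 0.122), and with median scaling 0.51 (adjusted p = 0.0251). Dkc1, Nolc1, Nop10, Polr1c, Imp4, Utp15, Nop14, Bop1, Pes1, Rrs1, Gtpbp4, Nip7 and Npm1 were picked for description after their values had been seen, while the other members described followed a rule on the size of their differences or on probes that differ in sign.

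Among the small-subunit assembly genes, 9 of 10 were higher in C than in A (median 1.52) and 9 of 10 were higher with SCF than in U (median 0.68). Heatr1, Wdr43 and Wdr75 belong to the complex that first sits on the growing precursor. Wdr43 had 8.05, 7.94 and 7.66 in A, 9.33, 9.22 and 9.62 in C, 7.88, 8.01 and 8.10 in U and 8.97, 8.89 and 9.12 in SCF. A and U overlapped, and C and SCF were higher and apart from them. C over A was 1.51 (SE 0.15, adjusted p = 3.24e-07) and SCF over U 1.00 (SE 0.15, adjusted p = 0.000125). Heatr1 had 9.96, 9.79 and 9.34 in A, 11.21, 11.23 and 11.24 in C, 10.73, 10.63 and 10.60 in U and 11.69, 11.34 and 11.56 in SCF, the groups rising from A through U and C to SCF without overlap, and it rose by 1.53 (adjusted p = 1.54e-07) and 0.88 (adjusted p = 0.000247). Wdr75 had 8.15, 8.05 and 8.32 in A, 9.61, 9.71 and 9.85 in C, 8.24, 8.89 and 9.05 in U and 9.32, 9.52 and 9.59 in SCF. Its first U array lay among the A arrays, and it rose by 1.55 (adjusted p = 1.57e-06) and 0.75 (adjusted p = 0.0044).

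Rrp12, a factor for export of the small-subunit precursor from the nucleus, had 7.97, 7.78 and 7.72 in A, 9.91, 10.01 and 9.85 in C, 9.09, 9.33 and 9.55 in U and 10.12, 10.00 and 9.98 in SCF. The A arrays were far below the rest and the U arrays between, with C over A of 2.10 (4.28-fold, SE 0.14, adjusted p = 1.74e-09) and SCF over U of 0.71 (adjusted p = 0.000879). Nob1, the nuclease that makes the final cut of the small subunit's RNA, was at 7.98, 7.86 and 7.67 in A and 9.74, 9.64 and 9.63 in C, then at 8.97, 8.83 and 8.80 in U and 9.55, 9.40 and 9.71 in SCF. It rose by 1.83 (adjusted p = 7.16e-09) and 0.69 (adjusted p = 0.000985). Pno1, its partner on the particle, had 7.72, 7.59 and 8.31 in A, 9.47, 9.31 and 9.59 in C, 9.17, 9.33 and 9.70 in U and 9.88, 10.19 and 9.90 in SCF, C and U overlapping. It rose by 1.58 in C over A (adjusted p = 1.99e-06). Its SCF over U of 0.59 (adjusted p = 0.024) was 0.47, 0.56 and 0.49 without U replicate 1, U replicate 2 and SCF replicate 2 (adjusted p 0.114, 0.0758 and 0.102). Imp4, a processome protein, rose by 0.97 and 0.55.

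Tsr1, a late small-subunit factor, had 2 probes that differed. The brighter had 4.42, 4.28 and 4.50 in A, 5.64, 5.41 and 5.47 in C, 5.95, 5.62 and 5.93 in U and 6.86, 6.13 and 6.52 in SCF. This probe was not well above background on any A array and was at least 1.67-fold higher in C (adjusted p = 6.89e-05). With SCF it was higher than in U by 0.67 (adjusted p = 0.0101), and this was 0.56 without U replicate 2 (adjusted p = 0.0547) and 0.49 without SCF replicate 1 (adjusted p = 0.0581). The other probe, detected on 11 of 12 arrays, was at -0.10 for C over A (adjusted p = 0.694) and -0.48 for SCF over U (adjusted p = 0.0621). The mean of both probes gave 0.50 (adjusted p = 0.00661) for C over A and 0.09 (adjusted p = 0.676) for SCF over U. Utp15, of the same early complex as Heatr1, was detected on no A array and on 1 of 3 C arrays, so that no fold is given between them. It was at 5.12, 5.17 and 5.30 in U and 5.84, 5.66 and 6.11 in SCF, with SCF over U of 0.67 (adjusted p = 0.00168). Nop14, which joins the processome, rose by 1.18 in C over A (adjusted p = 3.49e-05), and its SCF over U was 0.39 (adjusted p = 0.118), or 0.53 with median scaling (adjusted p = 0.0471) and 0.54 without U replicate 3 (adjusted p = 0.0451).

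Among the large-subunit assembly genes, 9 of 10 were higher in C than in A (median 1.10) and 8 of 10 were higher with SCF than in U (median 0.64). Nop2, a methyltransferase of the large subunit's RNA, had 6.87, 6.42 and 7.00 in A, 8.85, 8.93 and 8.81 in C, 8.04, 7.61 and 8.07 in U and 8.67, 8.63 and 8.69 in SCF. The groups did not overlap and were ordered A, U, SCF and C. C over A was 2.10 (4.29-fold, SE 0.17, adjusted p = 2.64e-08) and SCF over U 0.76 (SE 0.17, adjusted p = 0.00303). Gnl3 (nucleostemin), a GTPase known for its high level in stem and dividing cells, had 10.41, 10.19 and 10.09 in A, 12.04, 12.16 and 12.35 in C, 11.01, 11.11 and 11.08 in U and 11.63, 11.68 and 11.85 in SCF. It kept the same order without overlap. C over A was 1.95 (3.87-fold, SE 0.12, adjusted p = 7.23e-10) and SCF over U 0.65 (SE 0.12, adjusted p = 0.000586).

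Gnl2, a related GTPase whose yeast counterpart prepares the large subunit for export, had 7.58, 7.33 and 7.69 in A, 8.96, 8.77 and 8.72 in C, 8.02, 7.91 and 7.96 in U and 8.64, 8.30 and 8.72 in SCF, with C and SCF arrays above those of U and A. It rose by 1.29 (adjusted p = 2.2e-06) and 0.59 (adjusted p = 0.00777). Rrp1b, a nucleolar protein of the large-subunit precursor, showed the largest SCF difference of the 37. It was at 7.47, 7.33 and 7.07 in U and 8.57, 8.30 and 8.69 in SCF, a 2.34-fold difference (log2 1.23, SE 0.17, adjusted p = 4.83e-05), beside 7.14, 7.37 and 6.92 in A and 7.94, 7.85 and 7.91 in C. Rrp1b was thus highest in SCF, with A and U overlapping. Ebna1bp2, whose yeast counterpart acts on the large subunit, had 9.32, 9.16 and 9.17 in A, 10.18, 9.96 and 10.03 in C, 9.58, 9.38 and 9.81 in U and 10.50, 10.47 and 10.33 in SCF. Its SCF arrays were above all others, and it rose by 0.84 in each comparison (adjusted p = 4.25e-05 and 0.000153). Nip7 rose by 1.20 and 0.71, and Gtpbp4, a GTPase, by 1.18 and 0.48, its SCF over U missing the threshold at 0.39 without SCF replicate 1 (adjusted p = 0.0848) and at 0.47 without SCF replicate 2 (adjusted p = 0.0531).

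Bop1 and Pes1 form a trimer with Wdr12 that is needed for the large subunit's RNA to mature. Pes1 had 6.66, 6.24 and 6.96 in A, 7.60, 7.60 and 7.73 in C, 8.48, 8.83 and 8.71 in U and 8.52, 8.57 and 8.22 in SCF. It was the single gene whose mean was highest in U, and U and SCF overlapped (SCF over U -0.23, SE 0.18, adjusted p = 0.372), while C over A was 1.02 (adjusted p = 0.000152). Bop1 had 7.65, 7.38 and 6.66 in A, 7.80, 7.95 and 7.88 in C, 8.27, 8.46 and 8.63 in U and 8.83, 8.87 and 9.42 in SCF. Its groups rose in the order A, C, U and SCF without overlap, yet SCF over U (0.59, SE 0.22, adjusted p = 0.0560) missed the threshold, which it passed on the deposited processed values (0.51, adjusted p = 0.0262), with median scaling (0.69, adjusted p = 0.0195), with no background correction (0.49, adjusted p = 0.0298) and when only the 6 arrays were fitted (adjusted p = 0.0285). C over A for Bop1 was 0.64 (adjusted p = 0.0215), but 0.36 (adjusted p = 0.114) without A replicate 3, 0.61 (adjusted p = 0.0652) without C replicate 2 and 0.36 (adjusted p = 0.0585) as the mean of its probes. Rrs1, whose yeast counterpart brings in a small rRNA particle, was detected on no A array and on 1 of 3 C arrays, so no fold is given between them, and rose by 0.62 with SCF (adjusted p = 0.00809).

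All 4 abundant nucleolar proteins with a detected probe were higher in both comparisons (medians 1.40 and 0.88). Npm1 (nucleophosmin), a chaperone and among the most plentiful proteins of the nucleolus, had 11.97, 11.81 and 12.78 in A, 13.30, 13.12 and 13.30 in C, 12.30, 12.43 and 12.37 in U and 13.21, 13.23 and 13.17 in SCF. The C and SCF arrays were level and above every A and U array. C over A was 1.05 (adjusted p = 8.14e-05) and SCF over U 0.83 (adjusted p = 0.00175). Ncl (nucleolin), which binds the precursor, had 8.47, 8.40 and 8.48 in A, 9.65, 9.71 and 9.98 in C, 8.68, 8.55 and 9.02 in U and 9.55, 9.70 and 9.60 in SCF, with C and SCF above U and U above A. It rose by 1.33 (adjusted p = 6.91e-07) and 0.87 (adjusted p = 0.000244). Mybbp1a, a nucleolar protein that binds MYB and takes part in rRNA processing, had 9.75, 9.43 and 8.77 in A, 10.81, 10.92 and 10.91 in C, 10.05, 10.12 and 9.91 in U and 10.82, 10.96 and 10.94 in SCF. Its C and SCF arrays overlapped above all U and A arrays. It rose by 1.56 (adjusted p = 1.48e-06) and 0.88 (adjusted p = 0.00134). Ddx21, an RNA helicase that links polymerase I transcription to processing, had 7.95, 7.32 and 7.61 in A, 9.04, 8.91 and 9.35 in C, 8.91, 8.72 and 8.82 in U and 9.46, 9.95 and 10.29 in SCF. Its SCF arrays were above all others, with SCF over U of 1.08 (SE 0.20, adjusted p = 0.000656) and C over A of 1.47 (adjusted p = 1.02e-05).

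**Figure D3:**
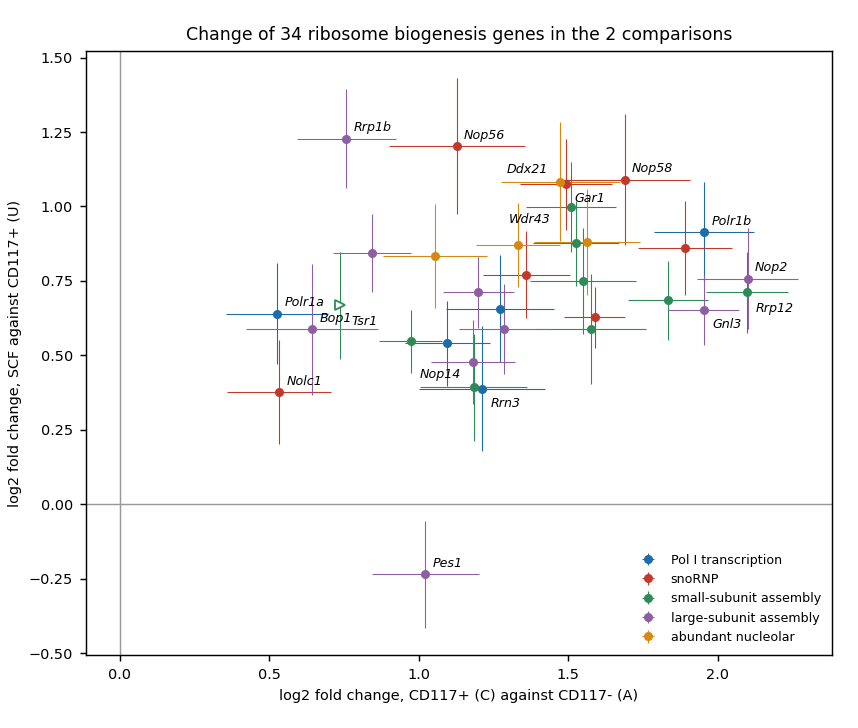
Each of 34 genes by its log2 fold change in C over A (horizontal) and in SCF over U (vertical), with standard errors from the fit as lines and colour by role. All points but Pes1 (-0.23) lie above 0 on the vertical axis; the open triangle of Tsr1 is a lower bound on the horizontal axis, and Dkc1, Utp15 and Rrs1, with no C over A fold, are left out.

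Counting groups of arrays that do not overlap gave a like picture. In C and A, 33 of the 37 genes had every C array above every A array (33.7% of all genes), and 35 had every SCF array above every U array (21.7% of all genes). Besides the 29 genes higher in both comparisons, 5 passed in C over A alone (Rrn3, Nop14, Bop1, Pes1 and Nolc1). The 3 that passed in SCF over U alone were Dkc1, Utp15 and Rrs1. They were detected on no A array and on at most 1 of 3 C arrays, so C over A could not be measured for them. The difference between the comparisons was not tested for these 8 genes.

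The 2 sets of CD117+ cells without SCF also differed in most of these genes. Of the 37, 26 were lower in U than in C and 6 were higher (28.5% and 28.5% of all genes), with a median of -0.62 against -0.01. By non-overlapping arrays, 26 were lower and 7 higher, against 33.0% and 32.7% of all genes. The largest difference was that of Nop56, which was lower in U by 3.40-fold (log2 -1.77, SE 0.23, adjusted p = 4.9e-06), followed by Wdr43 (-1.39, adjusted p = 6.49e-07), Nop58 (-1.35, adjusted p = 5.62e-05) and Gar1 (-1.25, adjusted p = 2.77e-06). The 6 higher in U were Pes1 (1.03, adjusted p = 0.000115), Nop14 (0.93, adjusted p = 0.000291), Rrn3 (0.68, adjusted p = 0.0108), Dkc1 (at least 1.3-fold, adjusted p = 0.00555), Bop1 (0.58, adjusted p = 0.0329) and Utp15, for which no fold is given since it was detected on 1 of 3 C arrays (adjusted p = 0.000828). Dkc1 and Utp15 passed the detection filter through the U and SCF arrays. With only probes detected on all 12 arrays, 25 of 32 genes were lower in U and 4 higher. Rrn3 was at 0.48 (adjusted p = 0.0725) without U replicate 3, and Bop1 missed the threshold without any 1 of C replicates 1 to 3 or U replicates 2 and 3 (0.49 to 0.62), as the mean of its probes (0.26, adjusted p = 0.151) and with no filter on dim probes (adjusted p = 0.0546). Gtpbp4, lower in U by 0.36 on the log2 scale (adjusted p = 0.0398), missed it without any 1 of C replicates 2 and 3 or U replicates 1 to 3. Gtpbp4 also missed the threshold with median scaling (-0.19) and with no filter on dim probes (adjusted p = 0.0637). Nolc1 (-0.57) missed it without C replicate 1 (-0.47, adjusted p = 0.0529). Ebna1bp2 (-0.47) missed it with median scaling (-0.30, adjusted p = 0.115), and Npm1 (-0.87) as the mean of its probes (-0.11, adjusted p = 0.504). The C and A arrays and the U and SCF arrays were normalised by the authors as separate sets. Array set, any culture and title group cannot be told apart in this comparison, which shares its arrays with both of those above.

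**Figure D4:**
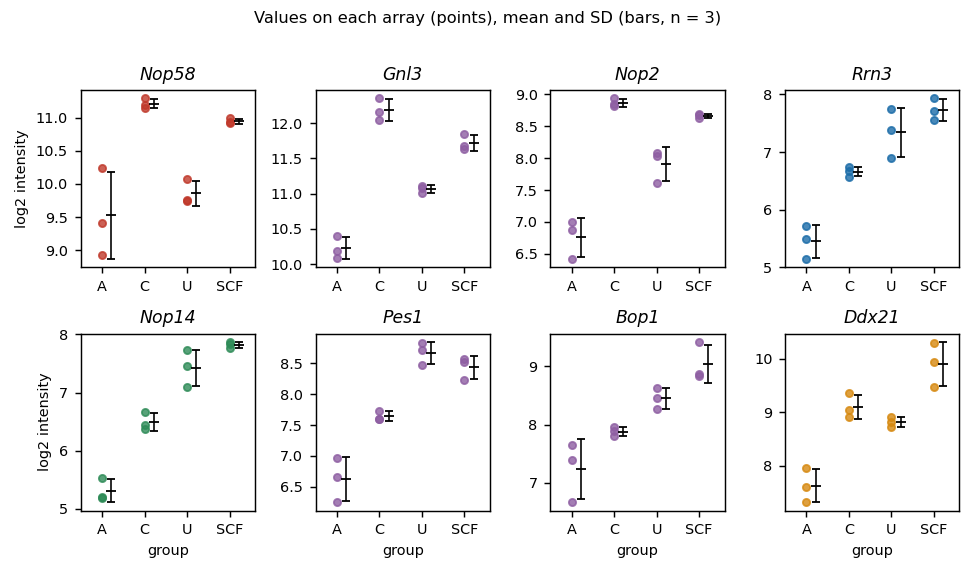
Log2 intensity of 8 genes on each array (points), with mean and SD of the 3 arrays of each group (bars), in A, C, U and SCF. Nop58, Gnl3 and Nop2 are lower in U than in C and SCF, Rrn3, Nop14 and Bop1 are lower in C than in U, Pes1 is highest in U, and Ddx21 is highest in SCF.

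Against the C cells, the SCF cells showed no common shift. Of the 37, 13 were higher in SCF and 2 lower (24.6% and 21.9% of all genes) and 22 passed in neither direction, with a median of 0.01, and 15 and 10 did not overlap (29.8% and 29.1% of all genes). With median scaling of the arrays in place of quantile normalisation the split was 15 higher and 0 lower, so that the share of calls that were higher went from 86.7% to 100%, while over all genes it went from 52.9% to 73.8%. Among the higher genes were Dkc1 (at least 2.17-fold, adjusted p = 1e-05), Nop14 (1.32, adjusted p = 1.19e-05), Bop1 (1.17, adjusted p = 0.00033) and Rrn3 (1.07, adjusted p = 0.000495), and Utp15 passed with no fold given (adjusted p = 7.37e-07). Dkc1, Utp15 and Rrs1, all among the 13, were detected on at most 1 of 3 C arrays. They passed the detection filter through the U and SCF arrays. With only probes detected on all 12 arrays, 9 of 32 genes were higher and 3 lower. The 2 lower genes were Gnl3 (-0.46, adjusted p = 0.00393) and Wdr43 (-0.39, adjusted p = 0.0408). Under median scaling Gnl3 was at -0.22 and Wdr43 at -0.13, neither past the threshold. Wdr43 also missed it without C replicate 1 (-0.43), C replicate 3 (-0.28), SCF replicate 1 (-0.38) or SCF replicate 2 (-0.34).

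The scaling of the arrays bears on the size of the first comparison. With median scaling the median of all genes stood at 0.49 in C over A, and the 37 genes stood at 1.95, or 1.46 above all genes, against 1.20 above all genes with quantile normalisation. The 34 higher and 0 lower calls were the same in number, while the share of calls that were higher among all genes went from 58.1% to 85.4% in C over A and from 50% to 61.1% in U over C.

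Genes of the pathway outside the 43 were mostly higher in the same comparisons. A list of 107 further ribosome biogenesis genes had 88 tested, of which 74 were higher and 0 lower in C than in A (median 0.91). Among all genes 29.6% were higher and 21.3% lower. With SCF, 53 of the 88 were higher and 0 lower than in U (median 0.52), beside 14.1% and 13.7% of all genes. In both comparisons 51 of the 88 were higher, against 7.88% of all genes. Nle1, whose yeast counterpart acts in large-subunit maturation, had the largest C over A difference, at 6.26, 6.43 and 5.47 in A and 8.66, 8.51 and 8.49 in C (log2 2.50). It was followed by Nat10, an RNA acetyltransferase of the small subunit's RNA (2.17), and Nol6, of the processome (2.14). For SCF over U the leaders were Ruvbl2, an ATPase that helps assemble box C/D particles, at 9.44, 9.26 and 9.14 in U and 10.29, 10.61 and 10.83 in SCF (1.30, adjusted p = 5.96e-06), Utp4 of the early complex (1.17) and Rrp15 (1.16). In U against C, 63 of the 88 were lower and 3 higher (median -0.60), beside 28.5% lower and 28.5% higher among all genes. In SCF against C, 21 of the 88 were lower and 9 higher (median -0.09), beside 21.9% lower and 24.6% higher among all genes.

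Of 19 members with more than 1 detected probe, some had probes that disagreed. A second probe for Ddx21 (mean 6.01, against 8.86) gave -2.92 in U against C and -2.36 in SCF against C, where the brighter one gave -0.28 and 0.80. A dim probe for Npm1 (mean 4.84, against 12.75) gave 0.05 in C over A and 1.46 in SCF over C. The dimmer probes of Polr1a (5.52), Gnl2 (5.15), Bop1 (4.54) and Nop10 (5.29) showed smaller differences, of 0.30, 0.64, 0.08 and 0.36 in C over A. The dimmest signals called detected were at 4.63 to 4.82 on the arrays, so several of these probes lay close to background.

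Myc, an activator of ribosome biogenesis genes, was measured beside them. It was at 5.75, 6.04 and 5.88 in A, 7.94, 7.57 and 7.70 in C, 5.44, 5.07 and 5.09 in U and 6.91, 6.77 and 8.17 in SCF. C was above A (1.85, SE 0.27, adjusted p = 2.84e-05) and SCF above U (2.08, SE 0.27, adjusted p = 3.99e-05), with U below A and the SCF arrays widely spread, and U against C was -2.54 (adjusted p = 6.61e-07). Mycn was not detected on enough arrays to be tested, and Max was lower in C than in A (-1.06). No link between Myc and the 37 genes was tested.

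The labels were set against markers of the cells they name and of other blood cells. Kit, which encodes CD117, was at 9.58, 8.94 and 9.51 in A, 11.39, 11.53 and 11.57 in C, 10.39, 10.17 and 10.06 in U and 10.72, 10.74 and 10.61 in SCF, so that the CD117- fraction was not without Kit RNA and U was below C. The 10 neutrophil markers, all tested, summed to a normalised intensity of 100770 to 113032 in A, 1759 to 3224 in C, 33849.6 to 36676 in U and 30132.8 to 32999 in SCF. Singly, 9 were lower in C than in A and 9 higher in U than in C, beside 21.3% and 28.5% of all genes. Of 10 erythroid markers 8 were tested, and they summed to 81459 to 84963 in A, 35240.2 to 43612.5 in C, 27747 to 29284 in U and 10607 to 13654.5 in SCF. Both sums were highest in A. Taken singly, 5 of the 8 erythroid markers were lower and 0 higher in C than in A. In U against C, 4 were lower and 1 higher, and with SCF 6 were lower and 1 higher than in U. Among all genes 21.3%, 28.5% and 13.7% were lower in these comparisons. The probe of Epb42 was not detected on enough arrays to be tested. Of 10 megakaryocyte markers 9 were tested, summing to 4334 to 10769 in A, 9496 to 13832 in C, 56252 to 58683 in U and 22127.5 to 23386 in SCF. Singly, 8 were higher in U than in C and 8 lower in SCF than in U, beside 28.5% and 13.7% of all genes. Of 10 monocyte and macrophage markers 9 were tested, summing to 17809 to 20495.5 in A, 5000 to 6213 in C, 22558 to 29033 in U and 11608 to 19282 in SCF. Sums on the linear scale weigh the brightest markers most. Singly, 8 of the 9 were higher in U than in C and 1, Ccr2, was lower, beside 28.5% and 28.5% of all genes. B cell markers (6 of 10 tested) summed to 7957 to 11196 in A and to at most 854 in each other group, and the probes of Ebf1 and Pax5 were not detected on enough arrays to be tested. Eosinophil markers (3 of 7 tested) summed to 20517 to 21393 in A, 17475 to 19306 in C, 10632 to 13128 in U and 1540 to 1666 in SCF. In U against C 2 of the 3 were lower and 1, Ccr3, was higher, beside the same 28.5% and 28.5% of all genes.

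Markers of cell division differed as well. The 10 of 12 cycling markers that were tested summed to 20848 to 21824 in A, 19711 to 20657 in C, 7281 to 8091 in U and 13560 to 15797 in SCF. In C against A, 2 of the 10 were higher and 3 lower (median -0.11), near the 29.6% and 21.3% of all genes. In SCF over U, 9 of 10 were higher (median 0.93), against 14.1% of all genes. In U against C, 9 of 10 were lower (median -1.48), against 28.5% of all genes. Like the ribosome biogenesis genes, the cycling markers were mostly higher in SCF over U and mostly lower in U against C. A link between them was not tested. In C over A the called ones went both ways. There Mki67, carried by dividing cells (-0.94), Rrm2, a subunit of ribonucleotide reductase (-0.67), and Birc5, of the mitotic passenger complex (-0.56), were lower in C, and Mcm2 (0.51) and Mcm5 (0.46), of the replicative helicase, were higher. Mast cell markers (6 of 8 tested) summed to 5861 to 6426 in A, 6685 to 7454 in C, 7829 to 8882 in U and 6957 to 9537 in SCF, and stem and progenitor markers (9 of 10 tested) to 33736.5 to 40942.5 in A, 39719 to 43034 in C, 26390.0 to 28731 in U and 30896 to 35772 in SCF. Taken singly, 6 of the 9 stem and progenitor markers were higher in C than in A and 0 lower (median 0.89). Of the 6 mast cell markers, 4 were higher in C than in A and 1 lower (median 1.57). On the 12 arrays 16210 to 18248 probes were detected, fewest in A (16210 to 17394).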

How the data were processed

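Total RNA of 12 cell samples was hybridised to Illumina arrays, 3 for each of the 4 groups that the titles give. The deposited scanner file holds, for every probe and array, an uncorrected linear intensity and a detection p-value. The authors' own normalized intensity values were scaled in separate sets of 6 arrays and served as an alternative. Their methods mention sequencing and count data, but array intensities were used. The name of the scanner software is not given in the sources used here.

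Scanner values were normexp-corrected and quantile normalized to log2 values with neqc (offset 16; limma 3.58.1, R 4.3.3). Of 45281 probes, 35784 had 1 symbol, 0 several and 9497 none. A probe was kept if its detection p was below 0.05 on 3 or more of the 12 arrays (20614, of which 17712 with a symbol), and the brightest represented each of 11472 genes. Other probes were fitted over all 17712. Differences were fitted with lmFit and eBayes (trend; 4 group means; 8 residual df) and then adjusted by Benjamini-Hochberg over all genes, after the code was tested on simulated data. A gene undetected in a group has a bound, at least N-fold, taken on each array against its own signal or the dimmest detected one, whichever was higher.

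Members given with all values were, per role, the 3 with the largest called differences in C over A and in SCF over U, and members whose probes differed in sign, beside Npm1, Pes1 and Bop1, added after their values had been seen. Members, lists and markers were chosen with earlier results of these data known. Alternatives were other normalizations, filters, probe rules and sample sets, a replicate block and leaving out each array. At most 0.00221% of raw values were identical between any pair of arrays. Precision is limited by 3 arrays a group. Plots were made in matplotlib 3.10.9 (Python 3.11.15).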

Additional observations from a re-analysis of the deposited data

How the results depend on the processing

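In C over A, the number of higher genes was 31 to 34 and the median 1.23 to 1.35 when each array was left out. The median was 1.95 with median scaling, 1.07 with no background correction and 1.10 on the deposited processed values, and no gene was lower under any alternative run. In SCF over U the number higher was 29 to 33 and the median 0.67 to 0.75 when each array was left out, and 7 with a median of 0.40 when C and U arrays together were the control. Of the 7, Dkc1, Utp15 and Rrs1 were close to background in C. In U against C, leaving out each array gave 4 to 6 higher and 25 lower, with a median of -0.69 to -0.61. In SCF against C it gave 11 to 13 higher, 1 to 3 lower and a median of -0.02 to 0.04. The lower genes there were 0 with median scaling, 4 with no background correction, 1 with no filter on dim probes, 6 with the mean of all detected probes and 5 with only the 6 arrays, and the median was 0.25 with median scaling. With the mean of all detected probes, SCF against C changed sign for Ebna1bp2 (-0.13), Npm1 (0.71), Ddx21 (-0.78) and Mybbp1a (-0.37). The cause of these shifts was not tested.

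No source used here says that equal replicate numbers mark the same mouse, and the deviations of same-numbered arrays correlated between -0.19 and 0.21, so the numbers were not taken as pairs. With a replicate block, 34 genes were higher in C over A, at a median of 1.27, and 32 in SCF over U, at 0.71, with no call of a member changed in either. In U against C the block gave 25 lower in place of 26, where Gtpbp4 (adjusted p = 0.0562) was lost. In SCF against C, Taf1d passed as lower (adjusted p = 0.0445) and Wdr43 was lost (adjusted p = 0.0536). Signal close to background limits Dkc1, Utp15, Tsr1, Rrs1 and Nolc1, and 3 arrays a group limit small differences.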
